A study of Mus musculus with 16 samples.

Results

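The genes described here encode ligands, receptors, an antagonist, a processing protease and a secreted target of TGF-beta and BMP signalling, in fibroblast lines of normal and tumour-bearing mouse mammary gland. The members are Tgfb1, Tgfb2, Tgfb3, Bmp4, Inhba, Tgfbr1, Tgfbr2, Grem1, Bmp1 and Tgfbi, taken with every probe that carries their symbol. These are 10 of 16593 genes and 18 of 25697 probes on the array. A probe was tested when it was above the negative controls (detection p under 0.01) on at least 2 arrays, which held for 14 of the 18 member probes, with each of the 10 genes keeping at least 1, and for 10453 probes of the array. The rule takes probes by gene symbol and uses no measured value, but the list of genes was chosen with earlier results of these data known. Tgfb1 lies on chromosome 7, Tgfb2 on 1, Tgfb3 on 12, Bmp4 and Bmp1 on 14, Inhba and Tgfbi on 13, Tgfbr1 on 4, Tgfbr2 on 9 and Grem1 on 2.

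The study asked how gene expression of mammary fibroblasts differs between normal gland and stages of tumour development. The lesions came from MMTV-PyMT mice, in which a mouse mammary tumour virus promoter drives the polyoma middle T oncogene in mammary epithelium. NF2 and NF3 are lines from normal gland, HpAF1 is the line from hyperplasia, AdAF1 the line from adenoma, and CAF1 to CAF4 are the 4 lines from carcinoma. All 8 lines, the normal ones included, were of the FVB/N background and carried the E6 gene of a human papillomavirus as the immortalizing agent, and none received a treatment. Each line was grown for 72 hours on a deformable gel of Matrigel and collagen I in medium with 10% serum, as 2 cultures, and each culture was measured on 1 Illumina array. The mouse of origin of each line, its clonality and how separate the cultures were are facts not given in the sources used here. Tests between lines therefore measure the spread between cultures only, and for hyperplasia and adenoma, with 1 line each, stage and line cannot be told apart.

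TGF-beta ligands and activins are secreted dimers that bind a type II and a type I receptor kinase, which phosphorylate SMAD2 and SMAD3. BMPs use related receptors that phosphorylate SMAD1, SMAD5 and SMAD9, and SMAD4 joins either group in the nucleus. Ligands are stored in the matrix in latent form, are released by proteases and integrins, and are held in check by secreted antagonists. In fibroblasts TGF-beta is known for inducing matrix and contractile genes, and in the mammary gland BMP4 is known from development of the mammary bud.

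Between 7445 and 9823 probes were detected per array. Of the 10 fibroblast markers, 10 were detected on at least 2 arrays and 8 on all 16, while 0 of 4 leukocyte markers were detected and 7 of 8 epithelial markers, including Cdh1, Krt5, Krt8, Krt14 and Krt18, were detected on 0 arrays. Cultures of a line correlated at 0.936 to 0.994 over the tested probes. For 11 of the 16 arrays the closest array was the other culture of the same line, and the exceptions were both cultures of NF2, both of NF3 and culture 2 of CAF4.

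Bmp4 and Tgfbi separated the lines most. Bmp4, a BMP ligand, was far higher in HpAF1 than in every other line, and Tgfbi, a secreted matrix protein named for its induction by TGF-beta, was lowest in HpAF1 and next lowest in AdAF1. Tgfb2 was not above the negative controls in HpAF1 and was lower there than in both normal lines and 3 of the carcinoma lines. The Tgfb2 call against the normal lines was lost under 15 of 23 other settings. The receptors Tgfbr1 and Tgfbr2, the ligands Tgfb1 and Tgfb3, and Inhba had no pair of lines that passed the test. No member passed between carcinoma and normal lines, where 0% of all tested probes passed.

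**Figure D1:**
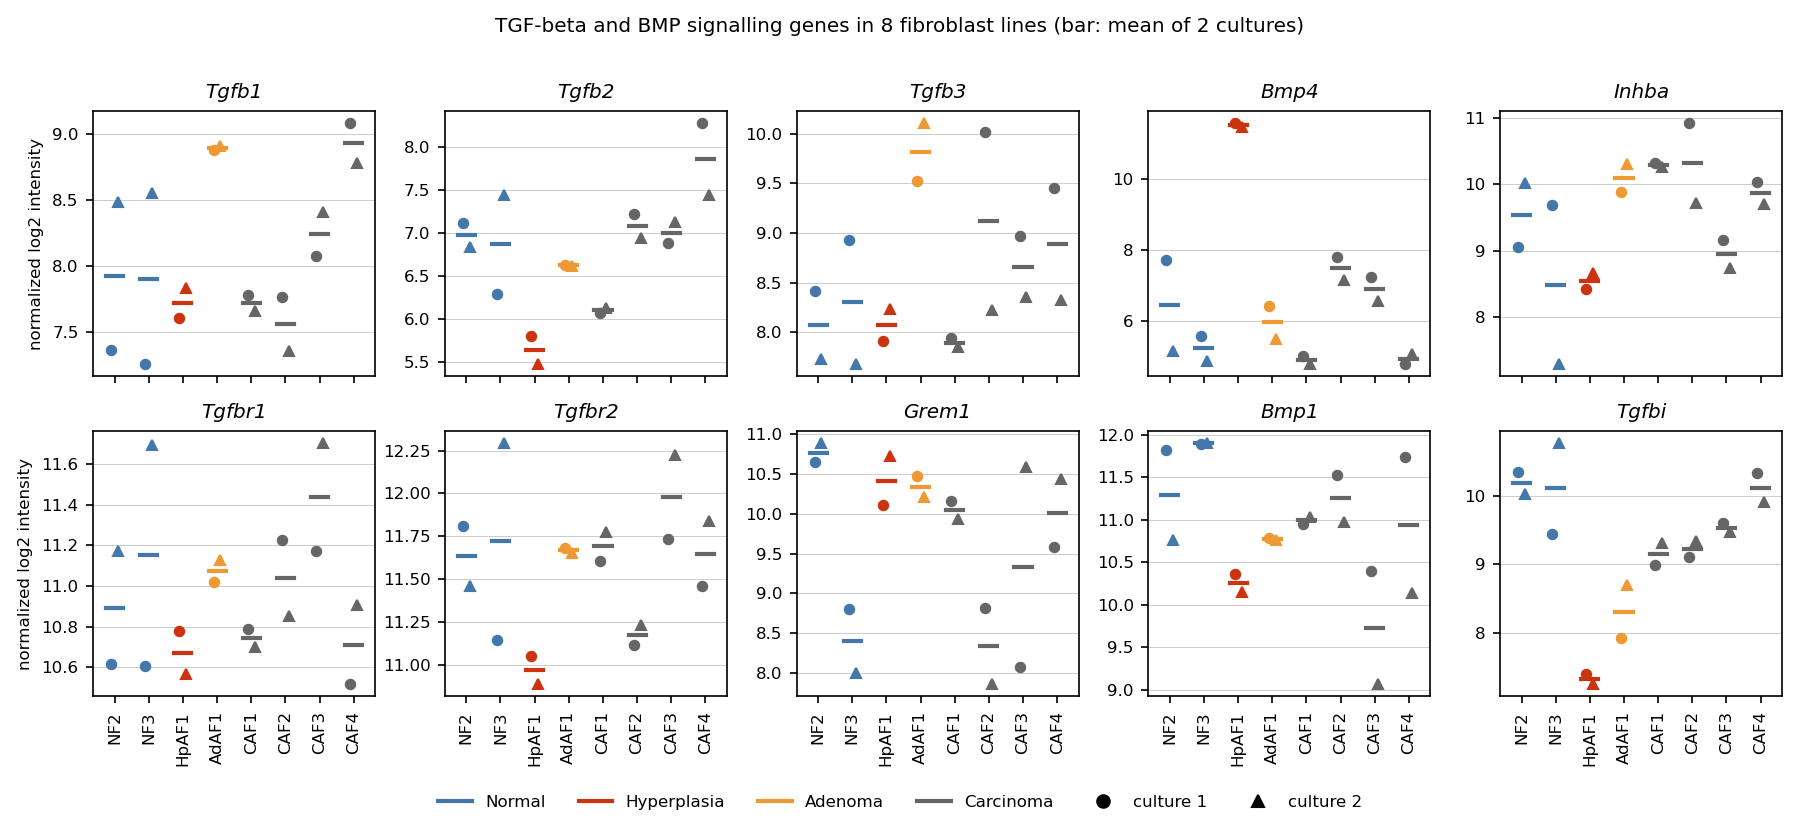
Normalized log2 intensity (vertical axis) of the 10 genes in the 8 lines (horizontal axis), with circles for culture 1, triangles for culture 2 and a bar for their mean, coloured by stage. The cultures of HpAF1 are at 11.58 and 11.45 for Bmp4, above all others, and at 7.40 and 7.25 for Tgfbi, below all others.

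Levels are given as normalized log2 intensities, on which 1 unit is a doubling, and a level of one probe cannot be set against that of another. Bmp4 was 11.58 and 11.45 in the cultures of HpAF1, 7.79 and 7.15 for CAF2, 7.22 and 6.55 for CAF3, 7.71 and 5.16 for NF2, and 6.42 and 5.49 for AdAF1. It was 5.57 and 4.87 for NF3, 5.01 and 4.78 for CAF1, and 4.77 and 5.05 for CAF4, where the probe was not above the negative controls in any culture. It was detected in 8 of 16 cultures, both of HpAF1, CAF2 and CAF3 and 1 each of NF2 and AdAF1. The cultures of HpAF1 lay above all 14 others with no overlap. HpAF1 exceeded NF2 by 5.08 (SE 0.63, adjusted p = 0.000481, limma) and NF3 by 6.29 (SE 0.63, adjusted p = 8.08e-05), and since NF3 was not detected the latter is a difference of at least 27.5-fold. It also exceeded the next line, CAF2, by 4.04 (adjusted p = 0.00105), AdAF1 by 5.56 (adjusted p = 0.00031) and CAF3 by 4.63 (adjusted p = 0.000609), and it was at least 51.1-fold above CAF1 and at least 37.1-fold above CAF4. CAF2 was at least 3.11-fold above CAF1 (adjusted p = 0.0190), so the carcinoma lines did not share a level. In bulk RNA, fewer cells that express a gene and less of its RNA per cell cannot be told apart.

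The hyperplasia line was apart from both normal lines in 1 of 6 mesothelial markers, Upk3b. The summed log2 level of the 6 was 38.8 in HpAF1 and 31.1 to 33.1 in the other lines. Of them, 3 were detected on both HpAF1 arrays: Upk3b at 9.25, against 4.76 to 5.06 in the other lines, Wt1 at 7.94, against 4.92 to 6.63, and Upk1b at 7.32, within the range of the other lines. The defining marker Msln was detected on 0 arrays, and so was Lrrn4. Wt1 and Upk1b were not called. Among fibroblast markers, HpAF1 was apart from both normal lines with Dcn higher and Vim and S100a4 lower. The part of these cells in the values of Bmp4, Tgfbi and Tgfb2 was not tested.

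Tgfb2, a TGF-beta ligand that is bound in latent complexes in the matrix, was 5.81 and 5.47 for HpAF1, 6.07 and 6.13 for CAF1, 6.63 and 6.62 for AdAF1, 6.29 and 7.44 for NF3, 7.12 and 6.83 for NF2, 6.88 and 7.13 for CAF3, 7.21 and 6.94 for CAF2, and 8.28 and 7.44 for CAF4. Both cultures of HpAF1 were not above the negative controls, so HpAF1 has no order against CAF1, whose values lay under the detection limit of the HpAF1 arrays, and CAF4 held the highest culture. The probe was 1.34 lower in HpAF1 than in NF2 on the log2 scale (difference -1.34, SE 0.35, adjusted p = 0.0296) and differed by -1.23 from NF3 (adjusted p = 0.0395). Against the mean of both normal lines this is a difference of at least 1.33-fold. NF3 was itself above the negative controls in only 1 of its 2 cultures. Its other culture, at 6.29, also lay under the detection limit of the HpAF1 arrays. HpAF1 was also at least 1.48-fold below CAF2, at least 1.41-fold below CAF3 and at least 2.55-fold below CAF4 (adjusted p = 0.0119, 0.0210 and 0.00129). Among the carcinoma lines CAF4 exceeded CAF1 by 1.76 (adjusted p = 0.00931). The call of HpAF1 against both normal lines was lost under 15 of 23 other settings, which included the authors' own normalized values (adjusted p = 0.096), leaving out either culture of HpAF1 (0.109 and 0.227) or either of NF2 (0.126 and 0.0628), culture 2 of NF3 (0.223), and either culture of AdAF1 (0.0563), CAF1 (0.0621) or CAF3 (0.0526).

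Tgfb1, the ligand most studied in fibroblast activation, was 9.08 and 8.77 for CAF4, 8.88 and 8.91 for AdAF1, 8.07 and 8.41 for CAF3, 7.36 and 8.48 for NF2, 7.25 and 8.55 for NF3, 7.60 and 7.83 for HpAF1, 7.78 and 7.66 for CAF1, and 7.76 and 7.35 for CAF2. The cultures of AdAF1 and CAF4 lay above all others, but those of each normal line spanned more than 1 log2 unit and no pair of lines passed (smallest adjusted p = 0.0602). Tgfb3, a ligand with a latent form like that of Tgfb1, was 9.53 and 10.11 for AdAF1, 10.01 and 8.23 for CAF2, 9.45 and 8.33 for CAF4, 8.97 and 8.35 for CAF3, 8.92 and 7.68 for NF3, 8.42 and 7.73 for NF2, 7.91 and 8.23 for HpAF1, and 7.94 and 7.85 for CAF1. AdAF1 had the highest mean, 9.82, and CAF2 spanned 1.79 between its cultures, and no pair of lines passed (smallest adjusted p = 0.0926).

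Inhba encodes the subunit of activin A. It was 10.93 and 9.72 for CAF2, 10.33 and 10.26 for CAF1, 9.88 and 10.30 for AdAF1, 10.03 and 9.70 for CAF4, 9.05 and 10.03 for NF2, 9.16 and 8.74 for CAF3, 8.43 and 8.66 for HpAF1, and 9.69 and 7.29 for NF3. The line means ran from 8.49 in NF3 to 10.33 in CAF2, with the cultures of NF3 2.40 apart, and no pair of lines passed (smallest adjusted p = 0.0608).

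The receptors varied least. Tgfbr2, the type II receptor that binds TGF-beta first, was 11.05 and 10.88 for HpAF1, 11.11 and 11.23 for CAF2, 11.81 and 11.46 for NF2, 11.46 and 11.84 for CAF4, 11.68 and 11.65 for AdAF1, 11.60 and 11.78 for CAF1, 11.14 and 12.30 for NF3, and 11.73 and 12.22 for CAF3. HpAF1 lay below all others, with a line mean of 10.97, but no pair of lines passed (smallest adjusted p = 0.0530). A second Tgfbr2 probe was detected on 8 of 16 arrays, in neither culture of NF3, HpAF1 and CAF2, so these lines have no order on it, and its highest line mean was 6.83 in AdAF1. Tgfbr1, the type I receptor kinase, had line means from 10.67 in HpAF1 to 11.44 in CAF3, the narrowest range of the 10 genes at 0.77, and the cultures of NF3 alone differed by 1.09. The other 3 Tgfbr1 probes were detected on 0 arrays.

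Grem1, a secreted antagonist of BMP2, BMP4 and BMP7, was 10.64 and 10.89 for NF2, 10.11 and 10.72 for HpAF1, 10.47 and 10.20 for AdAF1, 10.16 and 9.93 for CAF1, 9.58 and 10.44 for CAF4, 8.08 and 10.59 for CAF3, 8.80 and 8.01 for NF3, and 8.82 and 7.86 for CAF2. The normal lines sat near opposite ends of the order, 10.76 in NF2 and 8.41 in NF3, and the cultures of CAF3 were 2.51 apart. The pair of HpAF1 and CAF2 was the only one of 28 that passed, with HpAF1 higher by 2.07 (adjusted p = 0.0366).

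Bmp1, the protease that trims procollagens and cleaves the BMP antagonist chordin, was read by 3 detected probes and a 4th that was detected on 0 arrays. The first was 11.89 and 11.90 for NF3, 11.82 and 10.76 for NF2, 11.53 and 10.98 for CAF2, 10.95 and 11.03 for CAF1, 11.73 and 10.14 for CAF4, 10.78 and 10.76 for AdAF1, 10.36 and 10.15 for HpAF1, and 10.40 and 9.07 for CAF3. On all 3 probes NF3 had the highest and CAF3 the lowest line mean, and CAF3 differed from NF3 by -2.16, -1.78 and -1.83 (adjusted p = 0.0446, 0.0277 and 0.0269). The probes differed in the middle of the order. NF2 was second on the first probe but CAF2 was second on the other 2, and those 2 also put CAF3 below CAF2, by -1.54 and -1.61 (adjusted p = 0.0297 and 0.0269).

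Tgfbi was 7.40 and 7.25 for HpAF1, 7.92 and 8.69 for AdAF1, 8.99 and 9.31 for CAF1, 9.10 and 9.33 for CAF2, 9.60 and 9.46 for CAF3, 10.33 and 9.90 for CAF4, 9.45 and 10.77 for NF3, and 10.34 and 10.02 for NF2. The cultures of HpAF1 lay below all others, those of AdAF1 below all but HpAF1, and those of CAF4 within the normal cultures. HpAF1 differed from NF2 by -2.86 and from NF3 by -2.78 (SE 0.38, adjusted p = 0.000685 and 0.000688), and it was below each carcinoma line, by 1.82 against CAF1 (adjusted p = 0.0101) up to 2.79 against CAF4 (adjusted p = 0.000479). AdAF1 differed from NF2 by -1.88 and from NF3 by -1.81 (SE 0.38, adjusted p = 0.0289 and 0.0227) and was 1.81 below CAF4 (adjusted p = 0.0176). AdAF1 exceeded HpAF1 by 0.98, which did not pass (adjusted p = 0.148). The AdAF1 call was lost without culture 1 or 2 of NF2 (adjusted p = 0.136 and 0.0626), culture 2 of NF3 (0.0802), culture 1 or 2 of AdAF1 (0.215 and 0.0552), either culture of HpAF1 (0.0538) or either of CAF1 (0.0510). The second Tgfbi probe was not above the negative controls in HpAF1 or AdAF1, which gives no order between these lines and CAF1. On it HpAF1 was at least 1.62-fold below the mean of the normal lines (adjusted p = 0.00451 and 0.00402 against NF2 and NF3), while AdAF1 against the normal lines had adjusted p of 0.0949 and 0.0651.

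**Figure D2:**
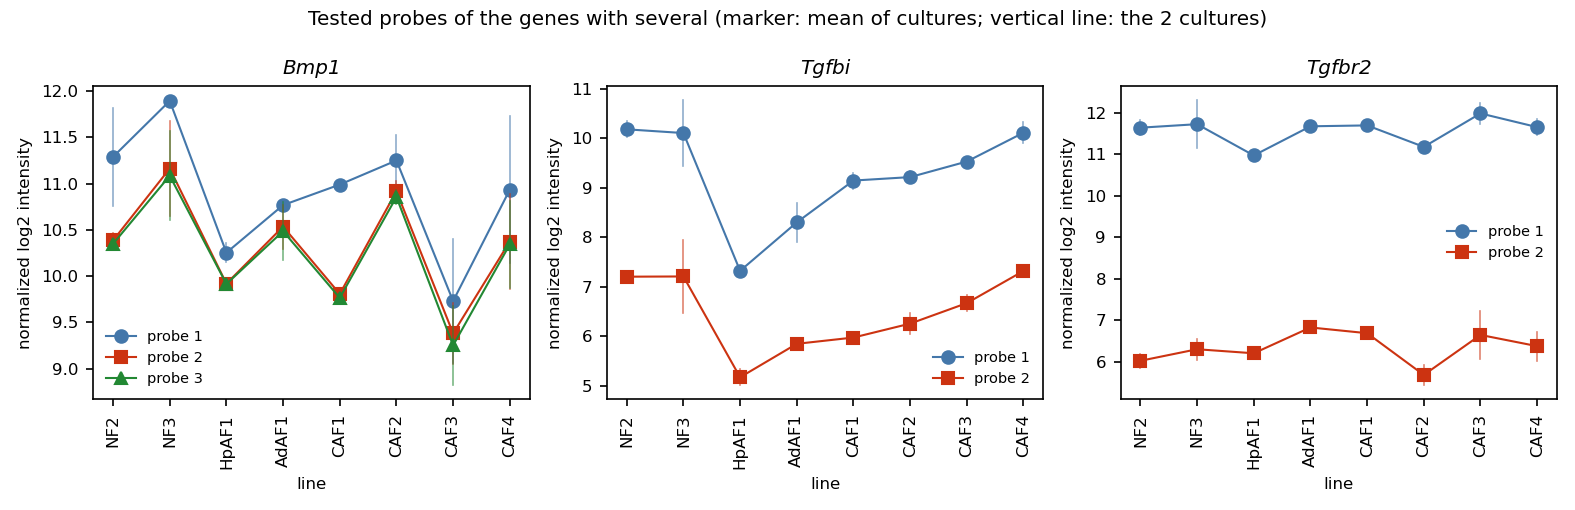
Normalized log2 intensity of the tested probes of Bmp1 (3), Tgfbi (2) and Tgfbr2 (2), with markers at the mean of cultures, thin vertical lines between the 2 cultures and the lines on the horizontal axis. The first Tgfbi probe is lowest in HpAF1, at 7.32, and all 3 Bmp1 probes are lowest in CAF3. The second Tgfbi probe in HpAF1 and AdAF1, and the second Tgfbr2 probe in NF3, HpAF1 and CAF2, were not above the negative controls.

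The promoters of Bmp4 and Tgfbi are shown because these genes had the widest ranges of line means and lay on opposite sides of the other lines in HpAF1. The sequences are the 250 bases before the RefSeq transcript start in mouse build GRCm38.p6, read 5′ to 3′ on the gene's strand. Bmp4 lies on chromosome 14 from 46383525 to 46390669, minus strand, with the window at chr14:46390670-46390919, and Tgfbi on chromosome 13 from 56609586 to 56639359, plus strand, with the window at chr13:56609336-56609585. Capitals mark the SMAD3/4 element CAGAC, the GC-rich SMAD element GGCGCC and the GC box GGGCGG, each searched on both strands.
Bmp4: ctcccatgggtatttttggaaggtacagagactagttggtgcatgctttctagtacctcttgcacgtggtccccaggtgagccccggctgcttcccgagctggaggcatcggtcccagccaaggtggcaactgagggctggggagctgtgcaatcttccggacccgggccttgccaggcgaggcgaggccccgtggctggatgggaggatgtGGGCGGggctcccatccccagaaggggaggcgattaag
Tgfbi: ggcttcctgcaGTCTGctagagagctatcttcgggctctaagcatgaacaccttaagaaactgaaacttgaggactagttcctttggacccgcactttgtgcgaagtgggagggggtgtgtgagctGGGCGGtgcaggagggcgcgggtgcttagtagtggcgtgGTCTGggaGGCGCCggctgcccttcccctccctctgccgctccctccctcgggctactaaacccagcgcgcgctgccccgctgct
The Tgfbi window held CAGAC on the opposite strand, printed as GTCTG, with its leftmost printed base at -239 and -85. It also held GGCGCC at -77 and GGGCGG at -124, all counted back from the start. The Bmp4 window held GGGCGG at -38 and neither SMAD element. Of 32851 such windows in the table, 42.2% held CAGAC, 9.59% held GGCGCC and 32.7% held GGGCGG. Of the 9 member windows, which covered 8 of the 10 genes with Tgfbr1 counted for 2 starts, 5 held CAGAC, 3 held GGCGCC and 5 held GGGCGG. The AP-1 element TGANTCA was in 0 of them (6.75% of all windows) and TATAAA in 2 (12.4%). A match of letters is a description of the window and not of a bound site.

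Among the 8 lines, 6 of 14 member probes passed a test of any difference (moderated F, limma), against 25.1% of all tested probes. They were the probes of Bmp4 (adjusted p = 0.000253), Tgfbi (0.00155 and 0.00704) and Tgfb2 (0.0130), and 2 of the 3 Bmp1 probes (0.0402 and 0.0415). The count is 3 without culture 2 of HpAF1. Grem1 (adjusted p = 0.0591), Tgfb1 (0.0897), Inhba (0.124), Tgfb3 (0.163), Tgfbr2 (0.228 and 0.206) and Tgfbr1 (0.458) did not pass. The range of line means was 6.62 for Bmp4, 2.86 for Tgfbi, 2.42 for Grem1 and 2.22 for Tgfb2. The median range of the 14 member probes was 1.88, against 0.90 over all tested probes, and the median gap between cultures of a line was 0.38, against 0.25.

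A line was called apart from the normal lines when it differed from NF2 and from NF3 in the same direction with an adjusted p under 0.05 for each. HpAF1 was apart in 4 of 14 member probes, 1 higher (Bmp4) and 3 lower (Tgfb2 and both Tgfbi probes), where the whole array had 7.69% of probes apart, 4.26% higher and 3.43% lower. The count fell to 2 without culture 1 of HpAF1. AdAF1 was apart in 1 probe, Tgfbi, where the whole array had 1.31% apart and 0.306% lower. CAF1, CAF2, CAF3 and CAF4 were apart in 0 member probes, where the whole array had 2.26%, 1.98%, 1.53% and 0.717%. Leaving out culture 1 of NF3 gave 1 probe in CAF1 and 1 in CAF2, and leaving out culture 1 of NF2 gave 1 in CAF2.

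**Figure D3:**
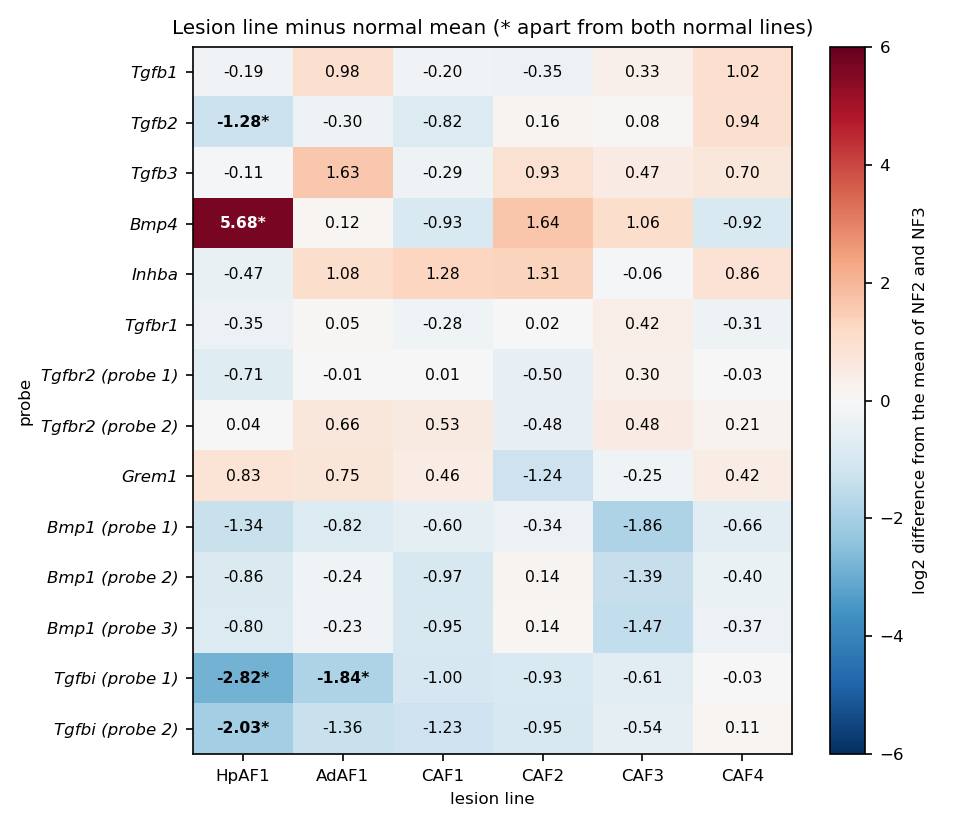
Log2 difference of each lesion line (columns) from the mean of NF2 and NF3 for the 14 tested probes (rows), as colour and number, with an asterisk where the line was apart from both normal lines. Asterisks stand at Bmp4 (5.68), Tgfb2 (-1.28) and both Tgfbi probes (-2.82 and -2.03) in HpAF1 and at the first Tgfbi probe in AdAF1 (-1.84), and the 4 carcinoma columns have none.

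Over all 28 pairs of lines and 10 genes, 25 of 280 comparisons passed (8.93%), against 7.03% over all tested probes. HpAF1 was in 19 of the 25 (76%), and in 51.8% of the passing pairs over all tested probes. Tgfbi had 9 passing pairs, Bmp4 8, Tgfb2 6, and Grem1 and Bmp1 1 each, and the other 5 genes had 0. Along the order of line means, neighbouring lines differed in 1 of 70 steps, that from CAF2 up to HpAF1 for Bmp4, against 0.707% over all tested probes. The orders given above are therefore of line means whose neighbours, apart from that step, did not differ beyond the spread of cultures, and lines not above the negative controls have no order among themselves.

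With lines as replicates, 0 of 14 member probes passed between the 4 carcinoma and 2 normal lines, where 0% of all tested probes passed in limma and 2.8% had an unadjusted p under 0.05, against 0 of the 10 genes. All members had an adjusted p of 1. On its first probe Bmp1 had a lower line mean in every carcinoma line than in either normal line. The stage means were 10.73 ± 0.68 (SD, n = 4) and 11.59 (n = 2), a difference of -0.87 (SE 0.44). It was the only member probe of the 14 with carcinoma line means wholly below, against 5.32% of all tested probes. CAF2 was only 0.04 under NF2 (adjusted p = 0.984 between these lines, limma). The cultures overlapped, with culture 2 of NF2 at 10.76 and culture 1 of CAF4 at 11.73. On the other 2 Bmp1 probes CAF2, at 10.92 and 10.86, lay between the normal lines. Tgfbi was 9.50 ± 0.44 in carcinoma lines and 10.15 in normal lines (difference -0.64, SE 0.29, unadjusted p = 0.0660), and the line means overlapped. Inhba was 9.86 ± 0.64 and 9.01 (difference 0.85, SE 0.46, unadjusted p = 0.111), also with overlap. For Tgfb1, Tgfb2, Tgfb3 and Bmp4 the differences were 0.20 (SE 0.38), 0.09 (SE 0.44), 0.45 (SE 0.34) and 0.21 (SE 0.82). For Tgfbr1, Tgfbr2 and Grem1 they were -0.04 (SE 0.25), -0.05 (SE 0.25) and -0.15 (SE 0.73), and under median scaling these 3 were above 0. The median over the 10 genes was 0.03, with 5 higher, against 0.01 over all tested probes.

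HpAF1 and AdAF1 were compared with the normal lines in the same fit, with the spread taken from the normal and carcinoma lines. For hyperplasia, 0 of 14 member probes passed, where 0.325% of all probes did, and 2 of 10 genes had an unadjusted p under 0.05 against 12.2% of all probes. Bmp4 differed by 5.68 (SE 1.17, adjusted p = 0.141) and Tgfbi by -2.82 (SE 0.42, adjusted p = 0.0698). With cultures kept and the line as a random block, both passed (adjusted p = 0.00712 and 0.00448), but this fit counts cultures of the 1 hyperplasia line. A fit of only the normal and hyperplasia lines leaves the differences at 5.68 and -2.82 by construction. Only the spread changes there, and it came from NF2 and NF3 alone. Neither fit adds a line to hyperplasia. Without culture 1 of CAF1 or of CAF4, or without either of these lines, Tgfbi had an adjusted p between 0.0356 and 0.0495. Of the other genes, Bmp1 differed by -1.34 (SE 0.62), Tgfbr2 by -0.71 (SE 0.35) and Grem1 by 0.83 (SE 1.03), none of them passing, and 2 of 10 were higher with a median of -0.41, against -0.01 over all probes. For adenoma, 0 member probes passed and 0% of all probes did in limma. Tgfb3 differed by 1.63 (SE 0.49) and Tgfbi by -1.84 (SE 0.42), the 2 of 10 genes with an unadjusted p under 0.05 (0.0122 and 0.00312, both adjusted p = 1), against 4.04% of all probes. Inhba differed by 1.08 (SE 0.66), Tgfb1 by 0.98 (SE 0.54) and Bmp1 by -0.82 (SE 0.62), and the median of the 10 genes was 0.09, with 6 higher. The 3 stage comparisons share the normal lines.

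Of 85 further genes of the pathway, 74 had a probe and 48 were tested, and 0 of the 48 passed between any lesion stage and the normal lines in limma. Of all tested probes, 0% passed for carcinoma, 0% for adenoma and 0.325% for hyperplasia. In the test of any difference among lines 18 of 48 passed (37.5%), against 25.1% of all tested probes. HpAF1 was apart from both normal lines in 5 of them (10.4%), CAF1 in 4, CAF2 in 3, and AdAF1 and CAF4 in 1 each, while CAF3 was apart in 0. Over the whole array the shares were 7.69% for HpAF1, 2.26% for CAF1, 1.98% for CAF2, 1.31% for AdAF1, 0.717% for CAF4 and 1.53% for CAF3, so that of HpAF1 is near its background. The ligand genes Bmp2, Bmp3, Bmp5, Bmp6 and Bmp7 were detected on 0 arrays each, and Bmp8a, detected on 7, was the only listed Bmp ligand tested besides Bmp4.

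Endoglin (Eng), a TGF-beta co-receptor best known from endothelium, was the only one of the 6 tested further receptors that passed the test of any difference among lines (adjusted p = 1.88e-06). Its line mean was 8.73 for CAF4, 8.50 for AdAF1, 8.10 for CAF2 and 8.05 for CAF1, against 6.46 for NF2, 6.10 for NF3, 6.09 for HpAF1 and 5.35 for CAF3. The first 4 lines were apart from both normal lines, by 2.45, 2.23, 1.82 and 1.77 over their mean (larger adjusted p of each line = 8.6e-05, 0.00041, 0.000862 and 0.000854). Eng was detected on 10 arrays, both of each of these 4 lines and 2 of the 4 normal ones. It was not above the negative controls in HpAF1 or CAF3, so these lines have no order between them. The differences from the normal mean thus rest in part on normal cultures without detection. Of the 6 endothelial markers with a probe, 5, including Pecam1, Cdh5 and Kdr, were detected on 0 arrays, and Tek was detected on 15, at line means of 6.32 to 7.37 and apart from both normal lines in 0 lesion lines. Their summed log2 level was 30.2 to 31.6 in the 4 lines with Eng called and 30.5 to 31.9 in the others. The receptors Tgfbr3, Acvr1, Acvr2b, Bmpr1a and Bmpr1b had 0 calls, and 0 of the 6 tested SMAD genes passed among lines.

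In HpAF1 the proteoglycan decorin (Dcn), which binds TGF-beta, was higher at 13.75 against 10.19 in NF2 and 11.86 in NF3, by 2.73 over their mean (adjusted p = 0.0300). The integrin subunit Itgav, part of receptors that release latent TGF-beta, was higher by 1.46 (adjusted p = 0.0353), and the SMAD ubiquitin ligase Smurf1 was higher by at least 1.08-fold (adjusted p = 0.00883), detected in 1 of 2 cultures of HpAF1 and 0 of 4 normal ones. The serine protease Htra1 differed by -2.35 (adjusted p = 0.0035) and Ccn2, a matricellular protein induced by TGF-beta, by -1.93 (adjusted p = 0.00194), and Ccn2 was 12.52 in HpAF1 against 14.03 to 15.54 in the other lines. Of the 8 TGF-beta responsive genes tested, 3 had HpAF1 above and 5 below the normal mean, with a median of -0.45 and 1 apart. Differences that did not pass included -1.26 for Col1a1, 1.04 for Tsc22d1 and 0.85 for Junb. Of the 6 BMP responsive genes 0 were apart, against 7.69% of all tested probes. HpAF1 was above the normal mean in 2 and below it in 4, with a median of -0.14. Id1 was at 10.49 in HpAF1 against 10.11 and 10.16 in the normal lines and Id3 at 8.45 against 8.92 and 8.99. The others ran from -0.50 for Id2 to 0.37 for Atoh8, each detected in 1 culture of HpAF1. All 8 tested genes of latency, activation and propeptide processing had HpAF1 above the normal mean, with a median of 0.27 and 1 apart, where 48.9% of all tested probes were above it, with a median of -0.01, and 7.69% were apart. For Ltbp3, Thbs1, Furin and Pcolce, however, HpAF1 lay between NF2 and NF3.

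CAF1 was apart in Msx1, a homeobox gene induced by BMP, which was at least 5.60-fold lower than in the normal lines (adjusted p = 0.000119), in Fst, the activin antagonist follistatin, by -2.77 (adjusted p = 0.0451), and in Snai1, a repressor of epithelial genes, by -1.23 (adjusted p = 0.0453). CAF2 was apart in Gdf10, a ligand of the family that was at least 8.42-fold lower (adjusted p = 0.0449), and in Dcn, by -3.52 (adjusted p = 0.0121). CAF2 also had the highest summed log2 level of 6 pericyte markers, 40.4 against 31.4 to 33.8 in the other lines, with 3 of them detected in both cultures and Kcnj8 and Abcc9 detected on 0 arrays, and their part in these values was not tested.

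**Figure D4:**
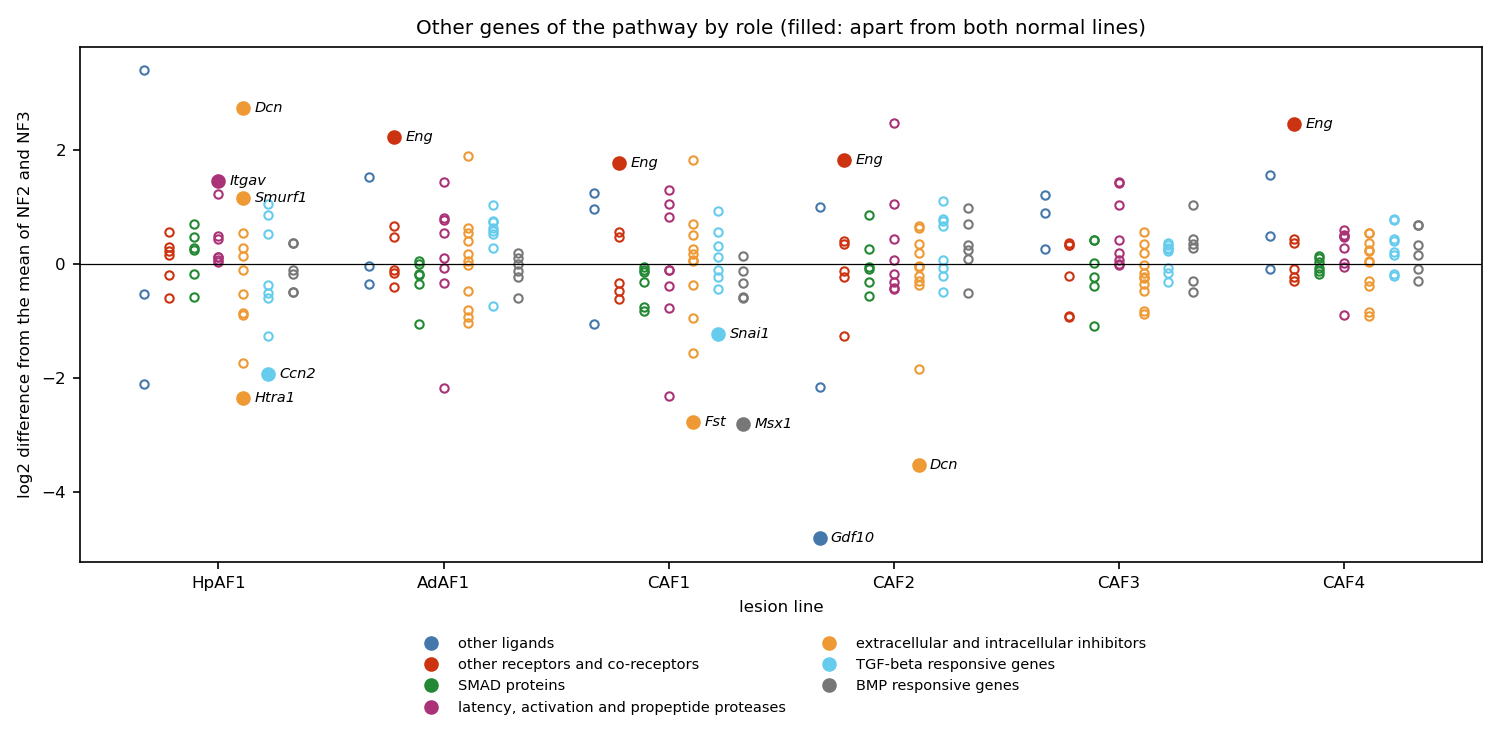
Log2 difference from the mean of NF2 and NF3 (vertical axis) of the 48 tested further genes of the pathway in each lesion line (horizontal axis), coloured by role, with filled, named points where the line was apart from both normal lines. Eng is filled in AdAF1, CAF1, CAF2 and CAF4, HpAF1 has 5 filled points and CAF3 has 0.

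Genes whose line means followed those of the members with the 3 widest ranges were taken from 1447 genes with an SD of line means of at least 0.5, as a description over 8 lines that share arrays and normalization. Closest to Bmp4 were Birc2, an inhibitor of apoptosis protein (r = 0.97), Sorl1, a sorting receptor (0.94), and Thnsl1 (0.93). Without HpAF1 these were 0.83, 0.77 and 0.58. Closest to Tgfbi were Sh3bgrl3 (0.95), 3830406C13Rik (0.95) and Faap100 (0.95), and without HpAF1 they were 0.92, 0.88 and 0.94. Closest to Grem1 were S100a8, a calprotectin subunit (0.91), the collagenase gene Mmp13 (0.88) and Whrn (0.88), and without CAF2 they were 0.89, 0.84 and 0.97. Some of these correlations rest in part on background values. Bmp4 was not above the negative controls in NF3, CAF1 and CAF4. Line means lay under 5.72, the lowest detected signal of any array, for Sorl1 in NF2, NF3, AdAF1, CAF1 and CAF4 (4.76 to 5.03). The same held for Thnsl1 in these lines and CAF2 (5.22 to 5.70), and for S100a8 in NF3, CAF2 and CAF3 (4.87 to 4.90).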

How the data were processed

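Total RNA of 16 cultures (8 lines, 2 each) was labelled with biotin and hybridised to Illumina mouse bead arrays. The authors deposited a table of probe intensity on a linear scale, not normalized per the file headers, with a detection p-value per probe and array, and a second deposited table of intensity that holds their normalized values and served as an alternative. Scanner settings, and the chip that held each array, were not given in the sources used here.

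With limma 3.58.1 in R 4.3.3, intensities were background corrected against the negative control distribution inferred from detection p-values, quantile normalized and put on the log2 scale (neqc, offset 16). Background offset compresses low values, so differences of dim probes are understated. Tested probes had a detection p under 0.01 on at least 2 arrays (10453, 40.7%). Symbols come from the platform annotation: 23978 probes had 1, 0 had several, and 23962 matched a RefSeq gene by Entrez number. A gene with several probes is represented by that of highest mean. Where a line was below detection in both cultures, the fold is a bound taken against the lowest signal among detected probes of each array.

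Stages were fitted over line means (4 residual and 2.96 prior degrees of freedom), lines over 16 arrays (8 and 3.69). All tests are two-sided, with Benjamini-Hochberg adjustment over all tested probes within each contrast and a threshold of 0.05. The fits were run on simulated data in which lines, apart from an added effect, differed less than here. That run does not measure how the stage comparisons perform at the observed spread between lines. Named are all members, up to 3 further pathway genes per lesion line and direction that lay apart from both normal lines, and the 3 genes most like each of the 3 members of widest range. Id1, Id2, Id3, Atoh8, Col1a1, Tsc22d1, Junb, Bmp8a, Ltbp3, Thbs1, Furin, Pcolce and the undetected BMP genes were named after their values were seen. The members, gene lists and tests were chosen with earlier results of these data known. Promoter windows are from RefSeq (GRCm38.p6), with a match for 8 of the 10 genes. Alternatives were the authors' values, median scaling, offset 50, other detection filters, a threshold of 0.1, blocks, fewer stages, and leaving out each culture or line. Precision is limited by the number of arrays.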

Additional observations from a re-analysis of the deposited data

How the results depend on the processing

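Of 1309 recomputed values under other settings, 1197 were labelled as kept. For a difference this means the same direction and the same side of the threshold. For a count it means equal to the main count or within a fixed ratio of it, so that 9 probes against 6 were labelled as kept. Of the rest, 51 turned direction, all of them stage differences of members that had not passed. The higher level of Bmp4 in HpAF1 than in both normal lines kept its call in 23 of 23 settings (adjusted p 1.87e-05 to 0.00771), as did the lower level of Tgfbi (0.000105 to 0.0121). That of Tgfb2 was lost under the authors' values (adjusted p = 0.096), median scaling (0.106), offset 50 (0.0609) and no detection filter (0.0735), and that of Tgfbi in AdAF1 with no filter (0.0665), with 10 of 23 settings losing it in all. The cause was not tested. The count of member probes passing for hyperplasia was 0, and it was 0 to 1 with a culture or line left out. Treating lines as a random block, which counts cultures, gave 3. A fit of only the 2 stages also raised the count, with the spread taken from NF2 and NF3 alone. The count apart in AdAF1 was 1, 0 with no filter, 2 at an adjusted p under 0.1 and 0 to 2 with a culture left out. With a culture left out, the counts were 3 to 9 for any difference among lines, 2 to 4 apart in HpAF1, 0 to 1 in CAF1, 0 to 1 in CAF2, and 1 to 2 differing neighbours. Median scaling moved the carcinoma difference of the median probe from 0.01 to 0.19 and the share of higher probes from 51.5% to 77.6%. Under it the carcinoma differences of Tgfbr1, Tgfbr2 and Grem1 were 0.137, 0.14 and 0.0403, and the adenoma difference of Tgfbr1 was -0.0233. With a culture or line left out, carcinoma differences ran from -0.13 to 0.52 for Tgfb1, -0.20 to 0.39 for Tgfb2, -0.43 to 0.85 for Bmp4, -0.31 to 0.23 for Tgfbr1, -0.34 to 0.23 for Tgfbr2 and -1.33 to 1.03 for Grem1. Hyperplasia differences ran from -0.52 to 0.13 for Tgfb1, -0.43 to 0.20 for Tgfb3, -1.07 to 0.13 for Inhba and -0.35 to 2.01 for Grem1, and adenoma differences from -0.51 to 0.76 for Bmp4, -0.22 to 0.32 for Tgfbr1, -0.30 to 0.28 for Tgfbr2 and -0.43 to 1.93 for Grem1. Culture numbers are shared between lines. Over 28 pairs of lines the correlation of culture differences ran from -0.20 to 0.65, with a median of 0.08 and 12 over 0.1. Culture differences were thus partly shared in some pairs of lines, and the reason was not tested. The main tests between lines treat all cultures as independent. With culture number as a replicate block, 7 member probes passed among lines, 4 were apart in HpAF1 and 1 in AdAF1, and with the random block added 2 passed for hyperplasia. A fit with the chip as a block was not run, since the files give no chip. A line left out at hyperplasia or adenoma removes that stage, and a lone culture was assumed to vary like the other lines.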
